A study of Rattus norvegicus with 4 samples.

Results

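The genes of the unfolded protein response, of the ATF4 pathway and of the heat shock response were described in rat L6 myoblasts with and without human hepatocyte growth factor (hHGF). The list held 43 genes, chosen by name for their roles, with earlier results of these data known. The genes were read through the probe sets that carry 1 gene symbol in the array annotation. Of these, 39 genes had such a probe set, out of 14217 genes measured, and a gene is the mean of its probe sets. The 39 genes had 54 probe sets, and 12 of them had more than 1. No value is given for Ern1, for which no probe set was listed, or for Hspa8, Hspa1b and Hsp90aa1, whose probe sets carry several symbols.

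RNA came from 4 cultures with 1 Affymetrix rat array each, namely L6-WT monolayer, L6-WT sheet, L6-HGF monolayer and L6-HGF sheet. All are L6, a rat skeletal myoblast line. L6-HGF carries human hgf for constitutive expression from the retroviral vector pBabepuro and went through puromycin selection. L6-WT myoblasts are wild type, and a line with the empty vector was not described. The effects of hHGF, of the vector and of the selection therefore cannot be told apart in any L6-HGF minus L6-WT difference. Sheets were made by plating myoblasts on thermoreactive dishes, from which the intact layer came off at room temperature. The plating density and culture time of the monolayers were not described. Plating density, culture time, the dish and the detachment likewise cannot be told apart in a sheet minus monolayer difference.

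Proteins that fail to fold in the endoplasmic reticulum (ER) are sensed by IRE1, PERK and ATF6, which are encoded by Ern1, Eif2ak3 and Atf6. Activated IRE1 splices the mRNA of Xbp1, ATF6 is cleaved to a transcription factor, and both factors induce ER chaperones and genes of ER-associated degradation. PERK phosphorylates the translation factor eIF2alpha, which lowers general translation but favours translation of ATF4, a factor that induces Ddit3 (CHOP), Trib3 and genes of amino acid synthesis. The same step can be reached from other kinases, such as GCN2 on shortage of amino acids, so that ATF4 targets can move without ER chaperones. Heat shock proteins of the cytosol are induced mainly by the heat shock factor HSF1.

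Promoters were searched for the letters of elements that these factors are known to bind. RefSeq promoters (assembly GRCr8, 250 bases before to 50 after the start) were at hand for 35 of the 43 genes, and 17 of these held a searched element. A few are shown, most of them because they belong to genes that the results turn on. The ER stress element, bound by ATF6 with NF-Y, was searched as CCAAT and CCACG with 9 bases between them, on both strands, and the blocks are in capitals.
Hspa5, chr3:38452961-38453003, plus strand: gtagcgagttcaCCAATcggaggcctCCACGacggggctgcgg
Dnajc3, chr15:102432522-102432564, plus strand: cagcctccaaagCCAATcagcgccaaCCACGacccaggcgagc
Creld2, chr7:121789227-121789269, minus strand: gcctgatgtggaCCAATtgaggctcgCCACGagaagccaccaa
Canx, chr10:35158057-35158099, minus strand: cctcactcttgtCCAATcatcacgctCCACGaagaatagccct
Xbp1, chr14:84604546-84604588, plus strand: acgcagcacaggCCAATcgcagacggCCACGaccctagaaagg

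The element was found in 6 of the 11 ER chaperone genes with a promoter (54.5%) and in Xbp1, against 21 of 27457 genes in the table (0.0765%). The listed genes are counted among all genes in this and the later shares, which describe sequence and were not tested. Its middle lay at -34 from the start in Hspa5, the gene of the chaperone BiP, and at -136 in Creld2. A second form, ERSE-II, is ATTGG and CCACG with 1 base between them. It was found in Dnajb11, in Hyou1 at 2 sites and in Herpud1, against 17 of all genes (0.0619%), and Herpud1 is shown because its sheet difference was among the largest.
Herpud1, chr19:10614809-10614843, minus strand: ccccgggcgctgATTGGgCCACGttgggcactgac

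The ATF4 element was searched as TGATGNAA on both strands. It stood in Trib3 and Chac1 among the 8 ATF4 and CHOP targets (25%) and also in Herpud1, against 1141 of all genes (4.16%). No match stood in Asns, Psat1 and Sesn2, which also passed 1.5-fold between the cell lines in monolayers or in sheets. Trib3 and Chac1 are shown because Trib3 was past 2-fold between the cell lines in sheets and Chac1 past 1.5-fold in monolayers.
Trib3, chr3:161275535-161275566, plus strand (the gene is on the minus strand): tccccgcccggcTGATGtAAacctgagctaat
Chac1, chr3:126795952-126795983, minus strand (the gene is on the plus strand): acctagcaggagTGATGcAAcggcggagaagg

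The heat shock element was searched as 3 alternating blocks of GAA and TTC with 2 bases between blocks, starting with either block. It was found in 5 of the 9 heat shock genes with a promoter (55.6%), namely Hspa8, Hspd1, Hspe1, Hsph1 and Dnaja1, against 218 of all genes (0.794%). Hspd1 and Hspe1 lie head to head and share their sites. The shared site is shown from the Hspe1 side, with the blocks of its 2 overlapping matches in capitals, together with that of Hsph1.
Hspe1 and Hspd1, chr9:64084250-64084286, plus strand: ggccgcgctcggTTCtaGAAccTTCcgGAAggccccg
Hsph1, chr12:10427320-10427356, plus strand: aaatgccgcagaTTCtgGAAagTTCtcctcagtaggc
These matches describe letters in a window and not bound sites, and the lack of a match says only that the letters are not in that window.

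**Figure D1:**
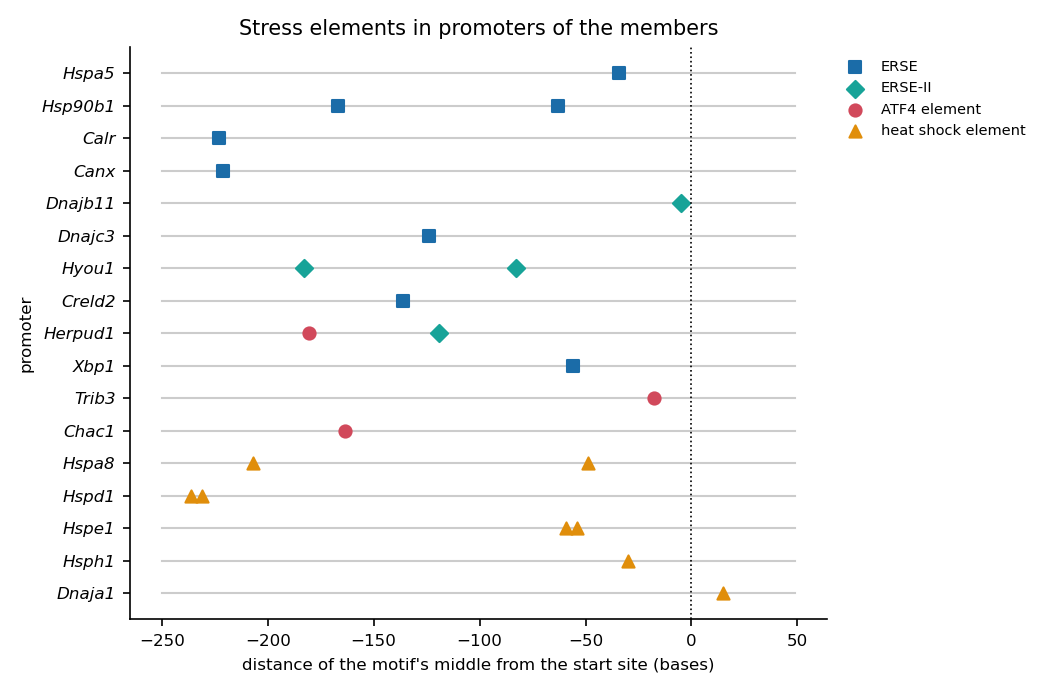
Positions of the 4 searched elements in the promoters of the genes that hold one; the horizontal axis is the distance of the middle of the element from the start site in bases, each grey line is the searched window and each symbol is a match. The ER stress element of Hspa5 sits at -34, that of Xbp1 at -56 and that of Creld2 at -136.

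The deposited values are log2 values centred by the authors on the median of the 4 arrays for each probe set. They keep how the arrays differ but not how bright a probe set was, so that levels of genes could not be compared with each other and the muscle markers of the line could not be checked for presence. Each condition had 1 array, and replicates to check a difference are therefore lacking. As a measure of array noise, the SD over 45 bacterial control probe sets was 0.12 (log2) between the monolayers, 0.22 between the sheets, 0.18 between sheet and monolayer of L6-WT and 0.16 of L6-HGF. These controls were also shifted upwards as a group between sheet and monolayer, with a median of 0.23 (-0.12 to 0.49) in L6-WT and 0.17 (-0.30 to 0.34) in L6-HGF, against medians of 0.10 between the monolayers and 0.05 between the sheets. Control probe sets at the 3′ end were set against those at the 5′ end. Between sheet and monolayer this difference shifted by 0.17 and 0.20 for actin in L6-WT and L6-HGF. In the same order it shifted by 0.31 and 0.29 for hexokinase and by 0.00056 and 0.10 for GAPDH. The part of these shifts in the results was not tested. Among all genes the median difference lay between -0.02 and 0.03 in each comparison. The L6-HGF sheet enters both the comparison of the sheets and that of the L6-HGF formats, and each other array is likewise shared by 2 comparisons, so that these are not independent.

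Ddit3, the gene of CHOP, had the largest sheet minus monolayer difference of the 39 genes in both cell lines, and Trib3, Herpud1 and the ER folding factors Creld2, Manf, Dnajb9 and Dnajc3 were more than 1.5-fold higher in the sheets of both. In bulk RNA, a change in the share of stressed cells and a change of RNA per cell cannot be told apart. In L6-WT, 3 of the 39 genes were more than 2-fold higher in the sheet than in the monolayer, against 0.717% of all genes, namely Ddit3, Manf and Creld2. None was more than 2-fold lower, against 0.492% of all genes. In L6-HGF, Ddit3 and Trib3 were more than 2-fold higher in the sheet, against 1.17% of all genes, and none was more than 2-fold lower, against 2.57%. Under quantile normalization of the centred values the counts past 2-fold higher were 6 in L6-WT and 4 in L6-HGF, against 1.15% and 1.08% of all genes. At 1.5-fold, 9 of 39 genes were higher (23.1%) and 3 lower (7.69%) in L6-WT, against 3.37% and 3.76% of all genes. In L6-HGF, 9 were higher (23.1%, against 4.02% of all genes). The 3 that were lower in L6-HGF are 7.69%, against 7.28%, a share close to that of all genes.

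Ddit3 encodes CHOP, a transcription factor that drives cell death in lasting ER stress. Its centred log2 value was -0.78 in the L6-WT monolayer, 0.78 in the L6-WT sheet, -0.83 in the L6-HGF monolayer and 1.06 in the L6-HGF sheet. Both sheets lay far above both monolayers, and the cell lines lay close together within each format. Ddit3 was 2.95-fold higher in the sheet of L6-WT and 3.71-fold higher in that of L6-HGF. Its inducer Atf4 was lower in the monolayers, at -0.33 in L6-WT and -0.21 in L6-HGF, than in the sheets, at 0.21 and 0.64. The difference was 1.45-fold in L6-WT and 1.80-fold in L6-HGF. Among the other sensors and factors, Xbp1 was 0.38 and 0.52 (log2) higher in the sheets of L6-WT and L6-HGF. The PERK gene Eif2ak3 differed by 0.12 and 0.04, and Atf6 by -0.39 and 0.07. The 2 probe sets of Atf6 differed by -0.22 and -0.57 in L6-WT and by -0.06 and 0.20 in L6-HGF. Splicing of Xbp1 was not measured.

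**Figure D2:**
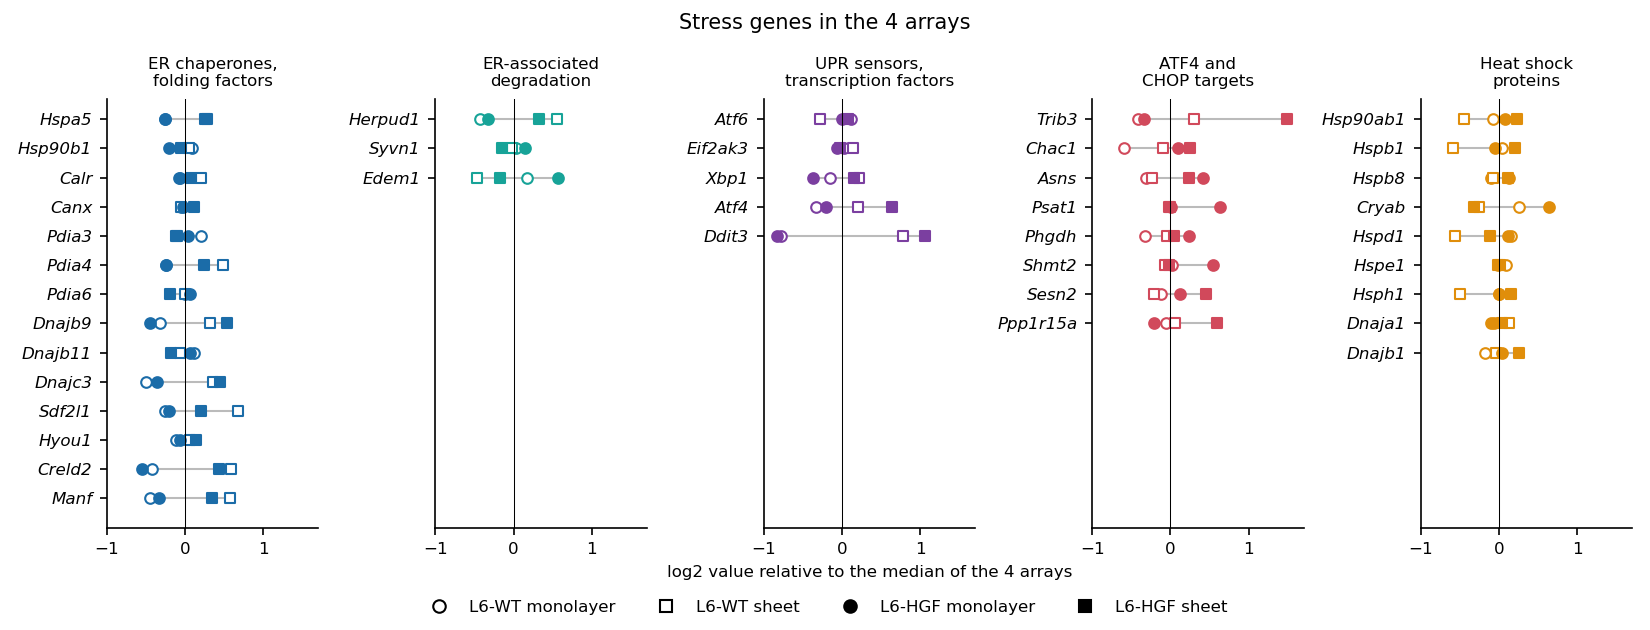
Centred log2 values of the 39 genes in each of the 4 arrays, by role, on a horizontal axis in log2 units relative to the median of the 4 arrays; circles are monolayers, squares are sheets, open symbols are L6-WT and filled symbols are L6-HGF. Ddit3, Creld2, Manf, Herpud1 and Trib3 have both squares to the right of both circles, and in Trib3 the L6-HGF sheet lies apart at 1.49.

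Of the 14 ER chaperones and folding factors, 6 were more than 1.5-fold higher in the L6-WT sheet and 4 in the L6-HGF sheet, against 3.37% and 4.02% of all genes. None was lower by that fold, against 3.76% and 7.28%. The median over the group was 0.39 (log2) in L6-WT and 0.31 in L6-HGF, against 0.03 for all genes in each. Creld2, a secreted ER stress protein, had values of -0.43 and 0.59 in the monolayer and sheet of L6-WT and of -0.55 and 0.43 in those of L6-HGF. It was 2.02-fold higher in the L6-WT sheet and 1.98-fold higher in the L6-HGF sheet. Manf, a secreted ER factor that protects stressed cells, was at -0.45 and 0.57 in L6-WT and at -0.34 and 0.34 in L6-HGF. For both genes, the 2 sheets lay above the 2 monolayers. Manf was 2.04-fold higher in the L6-WT sheet and 1.60-fold higher in the L6-HGF sheet.

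The J-domain cochaperones Dnajb9 and Dnajc3, which help BiP, were 1.55-fold and 1.81-fold higher in the L6-WT sheet and 1.99-fold and 1.74-fold higher in the L6-HGF sheet. Sdf2l1, which forms a complex with ER chaperones, was 1.90-fold higher in the L6-WT sheet and 1.33-fold in that of L6-HGF. Pdia4, a disulfide isomerase, was 1.65-fold and 1.41-fold higher. Hspa5, the gene of BiP itself, stood at -0.26 in both monolayers, at 0.26 in the L6-WT sheet and at 0.28 in the L6-HGF sheet, a difference of 1.42-fold in L6-WT and 1.45-fold in L6-HGF.

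Several chaperones of the same compartment showed no such difference. Hsp90b1 (GRP94) differed between sheet and monolayer by -0.04 (log2) in L6-WT and 0.16 in L6-HGF, and the lectin chaperone Canx by -0.0029 and 0.14. The isomerases Pdia3 and Pdia6 differed by -0.31 and -0.0029 in L6-WT and by -0.15 and -0.25 in L6-HGF. Calr and Hyou1 were higher by 0.28 and 0.18 in L6-WT and by 0.14 and 0.21 in L6-HGF, and Dnajb11 differed by -0.17 and -0.25. The letters of the ER stress element shown above stood in Creld2, Dnajc3 and Hspa5 as well as in Canx, Calr and Hsp90b1. They did not stand in Dnajb9, Pdia4 and Sdf2l1, and for Manf, Pdia3 and Pdia6 no promoter was at hand. A link between the element and the differences was not tested.

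In ER-associated degradation, the genes differed in direction. Herpud1, which scaffolds the retrotranslocation machinery, had values of -0.43 and 0.55 in the monolayer and sheet of L6-WT and of -0.33 and 0.33 in those of L6-HGF, and was 1.97-fold and 1.57-fold higher in the sheets. Edem1, which extracts misfolded glycoproteins for degradation, had values of 0.17 and -0.46 in L6-WT and 0.56 and -0.17 in L6-HGF. It was 1.55-fold lower in the L6-WT sheet and 1.66-fold lower in that of L6-HGF. Its 3 probe sets lay between -0.86 and -0.29 (log2) in L6-WT and between -0.86 and -0.62 in L6-HGF. Syvn1, the ubiquitin ligase HRD1, differed by -0.05 and -0.30.

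**Figure D3:**
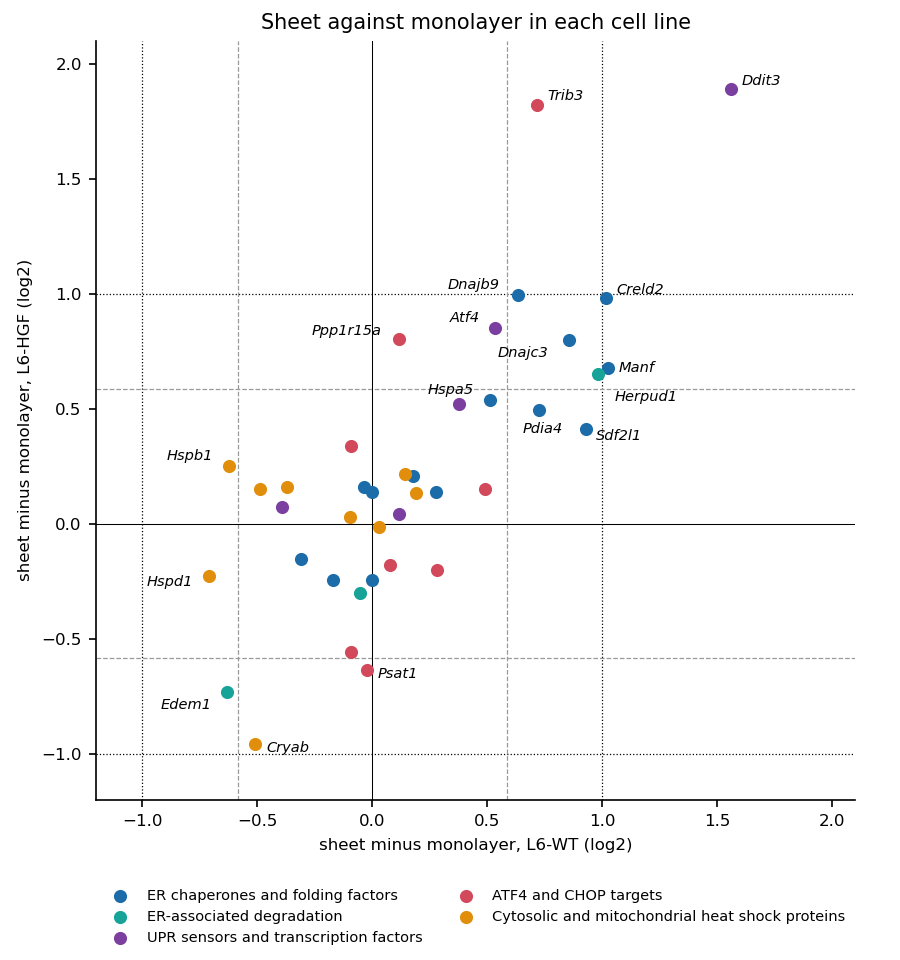
Sheet minus monolayer differences (log2) of the 39 genes in L6-WT on the horizontal axis and L6-HGF on the vertical axis, coloured by role, with dashed lines at 1.5-fold and dotted lines at 2-fold. Ddit3 lies farthest out at 1.56 and 1.89, Trib3 stands above the rest at 0.72 and 1.82, and the heat shock genes Hspb1 (-0.62 and 0.25) and Hspd1 (-0.71 and -0.23) lie to the left.

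The targets of ATF4 and CHOP did not share 1 direction between sheet and monolayer, with a median over 8 genes of 0.10 (log2) in L6-WT and -0.01 in L6-HGF. Trib3, a pseudokinase induced by ATF4 and CHOP, was at -0.41 in the L6-WT monolayer, 0.31 in the L6-WT sheet, -0.34 in the L6-HGF monolayer and 1.49 in the L6-HGF sheet. The L6-HGF sheet was the highest array by a wide margin. Trib3 was 1.64-fold higher in the sheet of L6-WT and 3.54-fold in that of L6-HGF. Ppp1r15a (GADD34), which returns eIF2alpha to its unphosphorylated form, had values of -0.06 and 0.06 in L6-WT and of -0.20 and 0.60 in L6-HGF, where it was 1.75-fold higher in the sheet. Psat1, an enzyme of serine synthesis, was 1.55-fold lower in the L6-HGF sheet than in the monolayer and differed by -0.02 (log2) in L6-WT. Shmt2, which makes glycine from serine in mitochondria, differed by -0.56 in L6-HGF and -0.09 in L6-WT. Asns, Phgdh, Chac1 and Sesn2 lay between -0.20 and 0.49 in both cell lines.

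Among the heat shock proteins, the median over 9 genes was -0.37 (log2) in L6-WT and 0.13 in L6-HGF. Hspd1, the mitochondrial chaperonin HSP60, was 1.63-fold lower in the sheet of L6-WT and differed by -0.23 (log2) in L6-HGF. Hspb1 (HSP27), a small heat shock protein that acts on actin and unfolded clients, was 1.54-fold lower in the sheet of L6-WT, with a difference of 0.25 (log2) the other way in L6-HGF. Cryab, the small heat shock protein of muscle, had values of 0.25 and -0.25 in L6-WT and of 0.64 and -0.32 in L6-HGF, so that both sheets lay below both monolayers. It was 1.42-fold lower in the L6-WT sheet and 1.94-fold lower in the L6-HGF sheet. Hsp90ab1 and Hsph1 differed by -0.37 and -0.49 in L6-WT and by 0.16 and 0.15 in L6-HGF. The chaperonin partner Hspe1 and the cochaperones Dnaja1 and Dnajb1, together with Hspb8, lay between -0.10 and 0.22 in both.

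In the monolayers, Asns, Chac1 and Psat1 had the largest differences of L6-HGF above L6-WT among the 39 genes. No gene of the 39 was more than 2-fold higher or lower, against 0.225% and 0.309% of all genes. At 1.5-fold, these 3 were higher and none was lower, against 1.22% and 1.29% of all genes. The ATF4 and CHOP targets had a median of 0.55 (log2) over 8 genes, against 0.0016 for all genes, and 7 of the 8 were above 0, against 50.4% of all genes. The median was -0.00011 for the ER chaperones, 0.12 for the 3 degradation genes, -0.10 for the sensors and factors and 0.0084 for the heat shock proteins.

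Asns, the asparagine synthetase, was at -0.31 in the L6-WT monolayer and 0.42 in the L6-HGF monolayer, and at -0.24 and 0.24 in the sheets. Both L6-HGF arrays lay above both L6-WT arrays, and the difference was 1.66-fold in monolayers and 1.39-fold in sheets. Chac1, which degrades glutathione, was at -0.59 and 0.10 in the monolayers of L6-WT and L6-HGF and at -0.10 and 0.25 in the sheets. The L6-WT monolayer was the lowest array, and the difference was 1.60-fold in monolayers and 1.27-fold in sheets. Psat1 was at 0.0032 in the L6-WT monolayer and 0.63 in the L6-HGF monolayer, and at -0.02 and -0.0032 in the sheets. It was thus the L6-HGF monolayer alone that stood out, by 1.55-fold over the L6-WT monolayer. Phgdh, the first enzyme of serine synthesis, and Shmt2 were 1.48-fold and 1.44-fold higher in L6-HGF monolayers, and both differed by under 0.1 (log2) in sheets, at 0.08 and 0.06.

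The stress regulators themselves differed little between the monolayers. Ddit3 differed by -0.05 (log2), Trib3 by 0.07, Atf4 by 0.12, Xbp1 by -0.21 and Ppp1r15a by -0.14. The largest differences among the chaperones were -0.30 for Hsp90b1 and 0.38 for Cryab, and Edem1 differed by 0.40.

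In the sheets, Trib3 was the 1 gene of the 39 that stood more than 2-fold above L6-WT in L6-HGF, against 0.492% of all genes, and none was more than 2-fold lower, against 0.95%. At 1.5-fold, 5 genes were higher, against 2.2% of all genes, and none was lower, against 3.58%. The 5 were Trib3, Sesn2, Hspb1, Hsp90ab1 and Hsph1. Trib3 was 2.27-fold higher, with differences of 1.45, 1.06 and 1.03 (log2) over its 3 probe sets, against 0.13, 0.18 and -0.09 in monolayers. Under quantile normalization of the centred values its difference was 0.80 (log2) and none of the 39 genes passed 2-fold. In that setting 0.218% of all genes were more than 2-fold higher and 0.443% lower. All 8 ATF4 and CHOP targets were above 0, against 46.2% of all genes, with a median of 0.41 against -0.02.

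Sesn2, a stress-induced inhibitor of mTORC1 signalling, was at -0.21 in the L6-WT sheet and 0.45 in the L6-HGF sheet, and at -0.12 and 0.12 in the monolayers. It was 1.58-fold higher in the L6-HGF sheet, with differences of 0.41 and 0.91 (log2) for its 2 probe sets. Atf4 was 1.35-fold higher and Ppp1r15a 1.45-fold, whereas Psat1, Phgdh and Shmt2 differed by 0.02, 0.08 and 0.06 (log2). Whether the hHGF difference itself differed between formats could not be tested, since the 4 arrays leave no residual for that. As a description, it was larger in sheets by 1.11 (log2) for Trib3 and by 0.69 for Ppp1r15a, and smaller by a log2 change of -0.61 for Psat1.

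**Figure D4:**
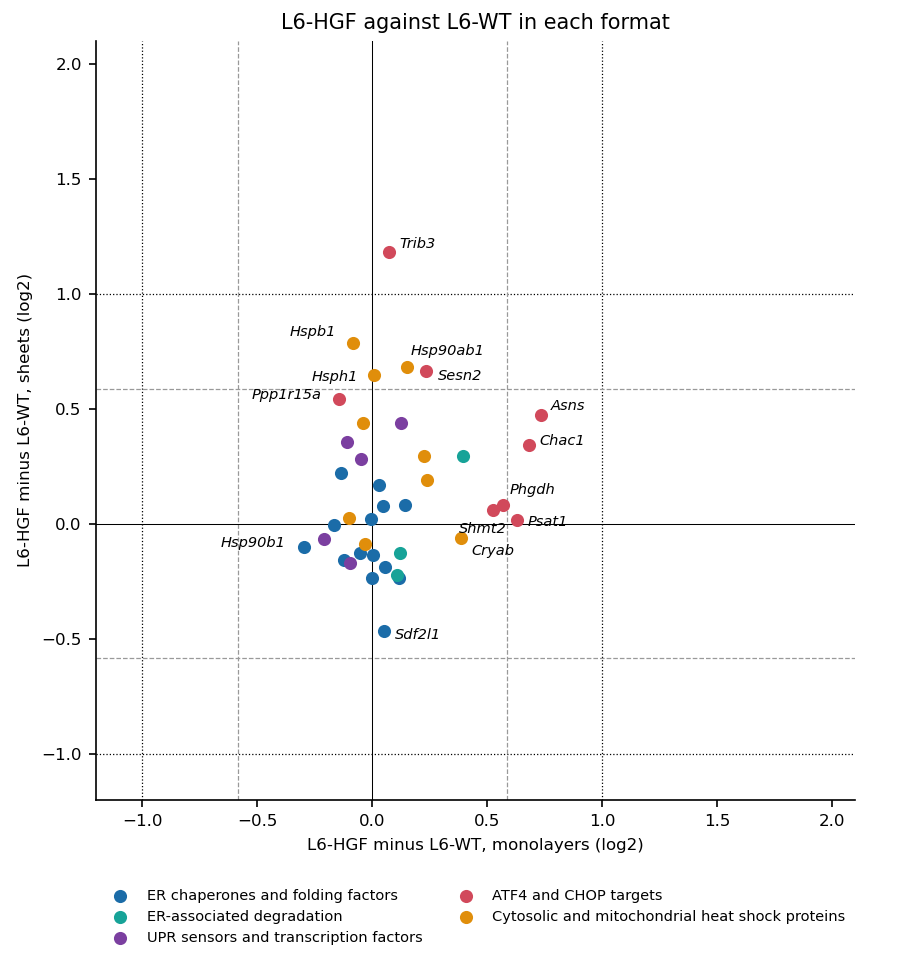
L6-HGF minus L6-WT differences (log2) of the 39 genes in monolayers on the horizontal axis and in sheets on the vertical axis, coloured by role, with dashed lines at 1.5-fold and dotted lines at 2-fold. Asns, Chac1, Psat1, Phgdh and Shmt2 spread to the right, while Trib3 (0.07 in monolayers and 1.18 in sheets), Hspb1, Hsp90ab1, Hsph1 and Sesn2 spread upwards.

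Hspb1 was at 0.04 and -0.04 in the monolayers of L6-WT and L6-HGF, at -0.58 in the L6-WT sheet and at 0.21 in the L6-HGF sheet. Hsp90ab1, the constitutive cytosolic HSP90, was at -0.07 and 0.07 in the monolayers and at -0.45 and 0.23 in the sheets. Hsph1 (HSP110), a nucleotide exchange factor of HSP70, was at -0.0042 and 0.0042 in the monolayers and at -0.49 and 0.16 in the sheets. In these genes the L6-WT sheet was the array that lay apart, below the other 3. The differences between the sheets were 1.73-fold for Hspb1, 1.60-fold for Hsp90ab1 and 1.57-fold for Hsph1. Hspd1 shared the low value in the L6-WT sheet, at -0.55 against -0.11 in the L6-HGF sheet, a difference of 1.36-fold. The group had a median of 0.30 (log2) over 9 genes, and the ER chaperones had one of -0.11 over 14 genes, with Sdf2l1 lowest at -0.47 and Dnajb9 highest at 0.22. The sensors and factors had a median of 0.28, which became -0.076 under quantile normalization, and Atf6 was higher by 0.36.

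Wider lists of each pathway, which exclude the 43 genes and were also chosen with earlier results known, were read in the same way. Of 50 measured other ER folding and degradation genes, such as translocon subunits and signal peptidase subunits, none passed 2-fold in any comparison. The share of all genes past 2-fold in either direction ran from 0.225% to 2.57% over the comparisons. The median of these 50 genes lay between -0.02 and 0.05 (log2). At 1.5-fold, none of them was higher in the L6-WT sheet than in the monolayer and 1, Ganab, was lower (2%, against 3.76% of all genes), while 1 was higher (2%, against 4.02%) and 6 were lower (12%, against 7.28%) in the L6-HGF sheet. Sel1l, the adaptor of the HRD1 ligase, and Mbtps2, a protease that cleaves ATF6, were 1.56-fold and 1.53-fold higher in L6-HGF sheets than in L6-WT sheets, which is 4% of the list, against 2.2% of all genes. 

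Of 51 other ATF4 pathway genes, among them aminoacyl-tRNA synthetases and amino acid transporters, 42 were above 0 in L6-HGF against L6-WT monolayers and 44 in sheets, against 50.4% and 46.2% of all genes. Their medians were 0.21 and 0.30 (log2), while 1 gene (Stc2) was more than 1.5-fold higher in monolayers (1.96%, against 1.22% of all genes) and 9 were so in sheets (17.6%, against 2.2%). In sheets, Mthfd1l, a mitochondrial enzyme of folate metabolism, was 2.63-fold higher in L6-HGF (1.96% of the list past 2-fold, against 0.492% of all genes). Between sheet and monolayer the medians were -0.02 in L6-WT and 0.01 in L6-HGF. At 1.5-fold, 5 genes were higher and 5 lower in L6-WT (9.8% each way, against 3.37% and 3.76% of all genes). In L6-HGF 8 were higher and 7 lower (15.7% and 13.7%, against 4.02% and 7.28%).

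Past 2-fold, Nupr1 was 2.09-fold higher in the L6-WT sheet (1.96% of the list, against 0.717% of all genes). In the L6-HGF sheet, Vldlr was 4.17-fold, Ddit4 3.13-fold, Mthfd1l 2.59-fold and Gadd45a 2.11-fold higher than in the monolayer (7.84%, against 1.17%). Stc2 was 2.50-fold lower (1.96%, against 2.57%, a share not above that of all genes). Vldlr and Ddit4 are also known as targets of the hypoxia-inducible factors, and Gadd45a as a target of p53, so that these genes are not read by ATF4 alone. The 4 probe sets of Vldlr lay between 1.97 and 2.21 (log2). The letters of the ATF4 element stood in the promoters of 14 of the 46 genes of this list that had one, which is 30.4%, against the 4.16% of all genes.

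Of 58 other heat shock and chaperone genes, none was more than 2-fold higher in any comparison, against 0.225% to 1.17% of all genes. Fkbp5 and Hspb6 were lower by 2.23-fold and 2.22-fold in the L6-HGF sheet than in the monolayer. That is 3.45% of the list, a share near the 2.57% of all genes. Fkbp5 is also known as a glucocorticoid target. In L6-HGF against L6-WT sheets, Lonp1 and Hspa9, a protease and the HSP70 of mitochondria, were 1.86-fold and 1.84-fold higher, Bag2 was also past 1.5-fold (5.17% of the list, against 2.2% of all genes), and Hspa14 was lower (1.72%, against 3.58%). The medians of the list were 0.12 (log2) in monolayers and 0.10 in sheets for L6-HGF against L6-WT, and -0.0054 and 0.0020 for sheet against monolayer in L6-WT and L6-HGF.

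**Figure D5:**
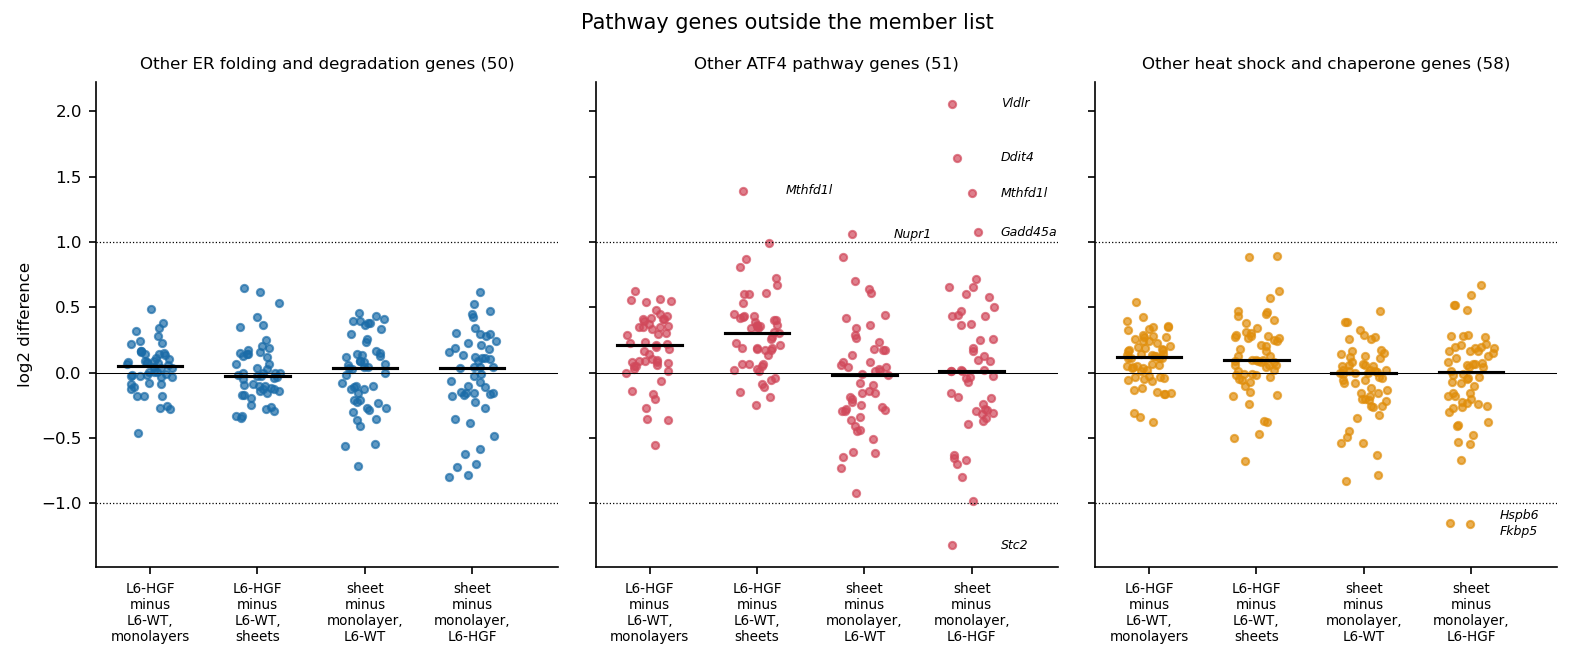
Log2 differences of the pathway genes outside the list of 43, in 3 panels (50 ER genes, 51 ATF4 pathway genes and 58 heat shock genes); each point is a gene, each column a comparison, black bars are medians and dotted lines mark 2-fold. Most of the ATF4 pathway genes (42 and 44 of 51) sit above 0 in the L6-HGF minus L6-WT columns, with medians of 0.21 and 0.30, and genes past 2-fold are named.

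The differences common to both cell lines or both formats were tested with limma over all 31042 probe sets, in a model with terms for cells and format that leaves 1 residual degree of freedom. No probe set of the genes passed an adjusted p of 0.05 for either effect, and none of all probe sets did. For format, the smallest adjusted p from limma over the genes was 0.158, shared by Ddit3, Creld2, Dnajc3 and a probe set of Edem1. Their fitted sheet minus monolayer differences were 1.73, 0.999, 0.83 and -0.80 (log2). Under quantile normalization Ddit3 alone passed among the 54 probe sets, with an adjusted limma p of 0.0434, and 53 of all probe sets (0.171%) passed as well. In the model without the cells term its adjusted limma p was 0.124. At an unadjusted limma p under 0.05, 14 of the 54 probe sets were higher and 5 lower in sheets. Both directions together are 35.2%, against 20.4% of all probe sets. Of all 31042 probe sets, fewer were higher (2753) than lower (3580) at that p. The 5 lower among the 54 belonged to Edem1 (3 probe sets), Cryab and Hspd1.

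For hHGF, limma gave 0.505 as the smallest adjusted p of the genes, and 6 of 54 probe sets had an unadjusted p under 0.05, all of them higher in L6-HGF. Counted over both directions, that is 11.1%, against 9.59% of all probe sets. Of all 31042 probe sets, 1475 were higher and 1502 lower in L6-HGF at that p, whereas none of the 54 was lower. Asns had a difference of 0.60 (log2) at an unadjusted limma p of 0.00836, and Chac1 one of 0.51 at 0.0198. The probe set of Sesn2 with the larger difference in sheets was among the 6, as were 2 of Edem1 and 1 of Dnajb1. The model takes the hHGF difference as equal in both formats, so that the pattern of Trib3, with its higher value in 1 array, enters the residual, and its 3 probe sets had unadjusted limma p values between 0.0693 and 0.2.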

How the data were processed

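Total RNA of 4 L6 cultures was hybridized to Affymetrix rat genome arrays, 1 for each condition. RMA was used by the authors to normalize them (version not given in the sources used here), and the deposited log2 values are centred for each probe set on the median of the 4 arrays. Signal levels are lost by this centring, which left no way to filter dim probe sets. From 31099 probe sets, 57 controls were left out. Of the other 31042, the annotation of the array gave 1 symbol for 20826 and several for 436, and did not list 9780. Genes are means of probe sets with 1 symbol, and 0 symbols of the listed genes changed through Entrez identifiers. Differences were taken at 2-fold, the threshold used in the study, and at 1.5-fold.

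Effects common to both formats or cell lines were tested with limma 3.58.1 in R 4.3.3, with Benjamini-Hochberg adjustment over all probe sets. Quantile normalization of the centred values, array centring, other ways to combine probe sets and limma with 1 term were run as alternatives. Python 3.11.15 with pandas 2.3.3, numpy 2.4.6 and matplotlib 3.10.9 served for the rest. The differences between arrays and the limma term for cells were tried on simulated data, and the other steps were not. Genes past 2-fold are given in all 4 arrays, those past 1.5-fold by their differences and the others by range; pathway genes are named past 2-fold, and those named at 1.5-fold were chosen after their values were seen. The genes and the lists were chosen with earlier results of these data known. Promoters are from RefSeq (GRCr8), and 8 of the 43 genes were not matched.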

Additional observations from a re-analysis of the deposited data

Results flagged for a closer look

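Of the 39 genes, 4 had differences of opposite sign under 1 contrast between formats or cell lines, chosen where each was larger than the SD of the bacterial control probe sets in its comparison. The range of these controls, -0.18 to 0.35 (log2) between monolayers, -0.51 to 0.36 between sheets, -0.12 to 0.49 between the formats of L6-WT and -0.30 to 0.34 between those of L6-HGF, holds every value given here other than 0.54 for Ppp1r15a and -0.62 for Hspb1. Whether the differences differ was not tested, since each rests on 1 array per condition. Between L6-HGF and L6-WT, Dnajb9, a cochaperone of BiP, differed by -0.14 (log2) in monolayers and 0.22 in sheets. Ppp1r15a, the eIF2alpha phosphatase subunit, differed by -0.14 in monolayers and 0.54 in sheets. Between sheet and monolayer, Phgdh of serine synthesis differed by 0.28 in L6-WT and -0.20 in L6-HGF. Hspb1, the small heat shock protein HSP27, differed by -0.62 in L6-WT and 0.25 in L6-HGF.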

How the results depend on the processing

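At 1.5-fold in place of 2-fold, the genes above L6-WT in L6-HGF came to 3 in monolayers and 5 in sheets, and those between sheet and monolayer to 9 higher and 3 lower in L6-WT and to 9 higher and 3 lower in L6-HGF. Quantile normalization, which could act only on centred values, left 0 genes past 2-fold in L6-HGF against L6-WT sheets, since Trib3 fell to 0.80 (log2). It gave 6 genes past 2-fold higher in the L6-WT sheet and 4 in the L6-HGF sheet, a median of -0.076 for the sensors and factors between the sheets, where Ddit3 was at -0.09, and 1 probe set of the genes, that of Ddit3, at an adjusted limma p under 0.05 for format, where 53 of all probe sets (0.171%) passed (0.0434, with a range of 0.0434 to 0.158 over the settings). The cause was not tested. Centring each array, the median of probe sets and dropping probe sets with a shared suffix left each count of genes past 2-fold within 1.5 times, and of 32 named differences past 1.5-fold 0 changed sign under a setting. Leaving out 1 array would leave a condition empty, so that none was left out. No paired analysis was possible because each condition had 1 array and the labels carry no replicate numbers. Precision is limited throughout by 1 array for each condition.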
